A study of Homo sapiens with 44 samples.

Results

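The libraries described here are the 4 RNA-seq libraries of unstimulated Ccd-18Co cells, out of 44 libraries in all, and they were chosen by their labels alone. Ccd-18Co is a fibroblast line from normal human colon, obtained from ATCC, grown in medium with 20% FBS and used up to passage 20. Cells were starved of serum for 72 h, after which these wells stayed another 24 h without any cytokine. The other 40 libraries came from the same line after the same starvation and 24 h with 1 of 10 cytokines (TNF, OSM, TGFβ1, IFNγ, IFNα, IL-22, IL-1β, IL-17A, IL-6 or IL-13) in serum-free medium, at 10 ng/ml except IL-1β at 0.1 ng/ml per the labels, a dose on which the sources used here differ. All 44 libraries were starved, so what starvation itself changes cannot be read from them. The model is 1 cell line, grown without epithelial, immune or endothelial cells, and the labels do not say whether the 4 replicates were separate experiments, so the spread given here may be partly technical.

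Fibroblasts build and remodel the extracellular matrix. They secrete fibrillar collagens, which are hydroxylated in the endoplasmic reticulum, trimmed outside the cell and crosslinked by lysyl oxidases, together with small leucine-rich proteoglycans that coat the fibrils. In the colon they also make growth factors and Wnt and BMP pathway proteins for the epithelium, and under inflammatory cytokines they make chemokines that attract neutrophils and monocytes. Serum withdrawal is commonly used to slow the cell cycle before a stimulus is given.

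Total estimated counts were 1725354, 1365019, 1538534 and 1474905 in unstimulated libraries 1 to 4. Of 40663 gene symbols, 16370 had a count in at least 1 of these libraries and 6090 had at least 10 counts in each, which is called measured below. Of the 19253 protein-coding genes, 5930 (30.8%) were measured and 8517 (44.2%) had at most 3 counts in each of the 4 libraries, which is called not detectable here. Levels of different genes are given in TPM, that is, counts divided by the exonic length of the canonical transcript and scaled to the same total in every library. In a transcript of 2 kb, 3 counts stood for 1.75 to 2.41 TPM, and this limit covers counting error only.

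The share of genes measured fell with the GC content of the transcript. Of protein-coding genes with 35% to 40% GC, 1579 of 2713 (58.2%) were measured, with a median of 10.2 TPM over all of them. Of those with 60% GC or more, 148 of 3044 (4.86%) were measured, with a median of 0.144 TPM. Whether GC content set the levels of single genes was not tested. BGN, which encodes the proteoglycan biglycan, had 9, 10, 1 and 9 counts, and ELN, the gene of elastin, had 4, 1, 5 and 2.

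**Figure D1:**
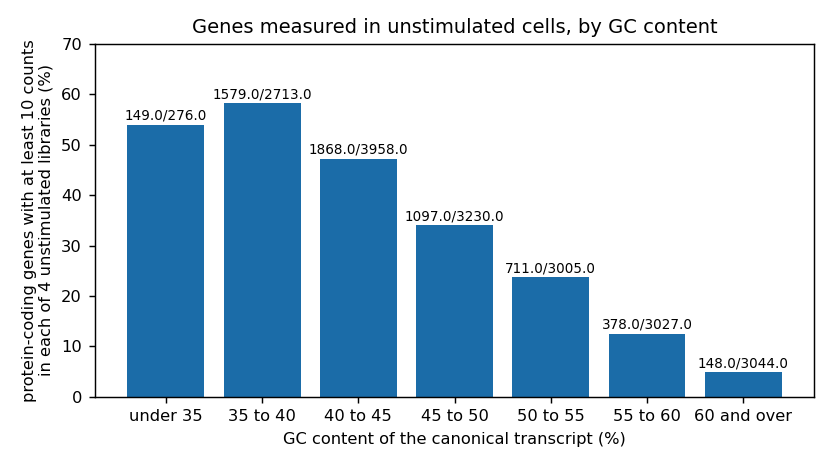
Percent of protein-coding genes with at least 10 counts in each of the 4 unstimulated libraries (y axis, from 0) for 7 classes of transcript GC content (x axis, percent); the fractions above the bars are genes measured over genes in the class. The share was 58.2% at 35% to 40% GC and 4.86% at 60% GC or more.

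The most abundant protein-coding transcripts included those of the actin cytoskeleton, calcium binding proteins and ribosomes. The 20 protein-coding genes with the highest mean TPM held 16.1% ± 0.35 of all TPM (SD, n = 4). TMSB4X, whose product thymosin β4 binds monomeric actin, led them at 22645, 20277, 21806 and 19372 TPM. CALM2, a calmodulin gene, followed at 16629 ± 1742 TPM, then LGALS1 (galectin 1) at 14598 ± 3665 TPM, TMSB10 at 11096 ± 1188 TPM and the myosin light chain gene MYL6 at 10452 ± 1695 TPM. The order depends on the transcript length used: with the longest transcript TMSB4X was at 9932 TPM, below LGALS1 at 15653 TPM, and with the mean over transcripts DCN was at 17557 TPM, above TMSB4X at 9667 TPM. With the canonical length the 4 libraries put TMSB4X between 19372 and 22645 TPM and LGALS1 between 11965 and 19827 TPM.

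Other cytoskeletal genes among the 20 were CAPZA1, which encodes an actin capping protein, at 9043 ± 3032 TPM, ACTB at 7460 ± 2106 TPM and PFN1 (profilin 1) at 4632 ± 1835 TPM. CAPZA1 was at 4797 TPM in library 1 and at 9409, 11953 and 10016 TPM in libraries 2 to 4, and ACTB at 4328 TPM in library 1 and at 8131 to 8766 TPM in the others. In both genes library 1 lay below the remaining libraries. PFN1 went the other way, at 7277 TPM in library 1 and 3185 to 4412 TPM in libraries 2 to 4, and so did FTL, the ferritin light chain gene, at 7646 TPM in library 1 against 2990 to 3570 TPM. The rest of the 20 were HNRNPH1 (7313 TPM), RPS25 (6453 TPM), CALR (6152 TPM), B2M (5894 TPM), SET (5606 TPM), RPL27 (5464 TPM), RPL7 (5315 TPM), C6orf62 (5059 TPM), DCN (4985 TPM), S100A6 (4692 TPM) and ANXA2 (4578 TPM), all as means of 4. With this length DCN was the 1 gene of the matrix lists among them, while with the mean over transcripts COL1A1 stood at 13738 TPM. The cytosolic ribosomal protein genes together held 7.91% ± 0.80 of TPM, and pseudogenes of mitochondrial genes held 6.24% ± 0.83, led by MTCO2P12 at 26633 ± 4533 TPM, a symbol singled out after its level was seen. The mitochondrial genes themselves were not analysed here.

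With the canonical length, the most abundant transcripts of the matrix lists were DCN, COL1A1, LUM and COL3A1, followed by TGFBI and COL1A2. Genes of the 5 matrix lists (fibrillar collagens, other collagens, glycoproteins and elastic fibre genes, laminins and basement membrane genes, proteoglycans) held 2.00% ± 0.17 of TPM and 4.78% ± 0.38 of counts, so their share differed little between libraries. DCN (GENCODE gene ENSG00000011465.18, GRCh38 chr12:91140484-91183217, minus strand) encodes decorin, a small leucine-rich proteoglycan that binds collagen fibrils. It was at 5507, 5625, 3999 and 4807 TPM. LUM, which encodes the related lumican, was at 2609, 3201, 3169 and 3151 TPM. Library 3 was lowest for DCN and library 1 for LUM, and the lowest and highest libraries differed by less than 1.5 times in both. SDC4 (syndecan 4) was at 275 ± 81.6 TPM, ASPN (asporin) at 122 ± 59.1 TPM and VCAN (versican) at 92.1 ± 5.17 TPM. Of 25 proteoglycan genes 8 were measured and 9 were not detectable, among them ACAN, PRELP and OGN.

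Of 11 fibrillar collagen genes 4 were measured. COL1A1 (ENSG00000108821.14, chr17:50184101-50201632, minus strand), the α1 chain of collagen I, was at 2182, 4968, 4552 and 3627 TPM, with library 1 the lowest. COL1A2, the other chain of collagen I, was at 846, 1070, 846 and 830 TPM, so the ratio of the chains differed between library 1 and the others. COL3A1 was at 892, 1066, 1105 and 997 TPM and COL5A2 at 127, 144, 140 and 142 TPM, and both varied little. COL5A1, the α1 chain of collagen V, had 157, 46, 78 and 1 counts, and COL2A1, COL5A3 and COL11A2 were not detectable. Among 25 other collagen genes 10 were measured and 13 were not detectable. The highest were COL6A3 (90.7 ± 17.5 TPM), the basement membrane chain COL4A1 (67.9 ± 10.9 TPM) and COL14A1 (67.3 ± 13.8 TPM).

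Of 37 glycoprotein and elastic fibre genes 22 were measured, the largest number in any matrix list. TGFBI led at 1114, 989, 790 and 856 TPM. SPARC, which binds collagen and calcium, was at 651, 522, 353 and 376 TPM, CTHRC1 at 616, 422, 354 and 347 TPM and FN1, the gene of fibronectin, at 396, 373, 226 and 262 TPM. In all 4 of these genes libraries 1 and 2 lay above libraries 3 and 4. THBS1, the gene of thrombospondin 1, ran in the opposite order at 205, 278, 367 and 322 TPM. Of 15 laminin and basement membrane genes 5 were measured, LAMB1 at 113 ± 12.4 TPM, LAMA4 at 57.2 ± 18.6 TPM and LAMC1 at 51.8 ± 13.0 TPM among them. The chains LAMA5 and LAMB3, found in epithelial basement membranes, were not detectable.

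Of 19 genes of collagen maturation 10 were measured. The lysyl hydroxylase gene PLOD2 was at 179 ± 44.1 TPM, the prolyl hydroxylase subunit gene P4HA1 at 166 ± 15.1 TPM and LOX, which crosslinks collagen, at 131 ± 28.1 TPM. LOX was at 173 TPM in library 2 and at 113 to 121 TPM in the others. Library 1 held the highest CPM (counts scaled to the normalized library size, for comparing libraries) in 11 of the 15 genes of this list tested, while it was highest in 29.5% of all 9513 genes tested. The median GC content of this list was 57.3%, and its part in that count was not tested.

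Transcripts of protease inhibitors summed to more TPM than those of matrix proteases. Of 14 inhibitor genes 10 were measured, and all 14 summed to 7224 ± 1481 TPM, with TIMP1 as the largest part. TIMP1, which inhibits matrix metalloproteinases, was at 6402, 3394, 3184 and 3631 TPM, so library 1 lay apart from the other 3. TFPI, an inhibitor of the tissue factor pathway of clotting, was at 1042 ± 142 TPM, SERPINE2 at 793 ± 143 TPM and TFPI2 at 366, 366, 1054 and 1123 TPM. TFPI2 split the libraries into 1 and 2 against 3 and 4. Of 25 matrix protease genes 13 were measured, and all 25 summed to 2699 ± 455 TPM. Stromelysin 1 (MMP3) was at 850, 604, 571 and 1013 TPM, interstitial collagenase (MMP1) at 638, 498, 597 and 670 TPM, CTSK (cathepsin K) at 225 ± 39.6 TPM, MMP10 at 202 ± 83.1 TPM and MMP2 at 188 ± 54.8 TPM. MMP7, MMP8 and MMP9, metalloproteinases of epithelial cells, neutrophils and macrophages, were not detectable.

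**Figure D2:**
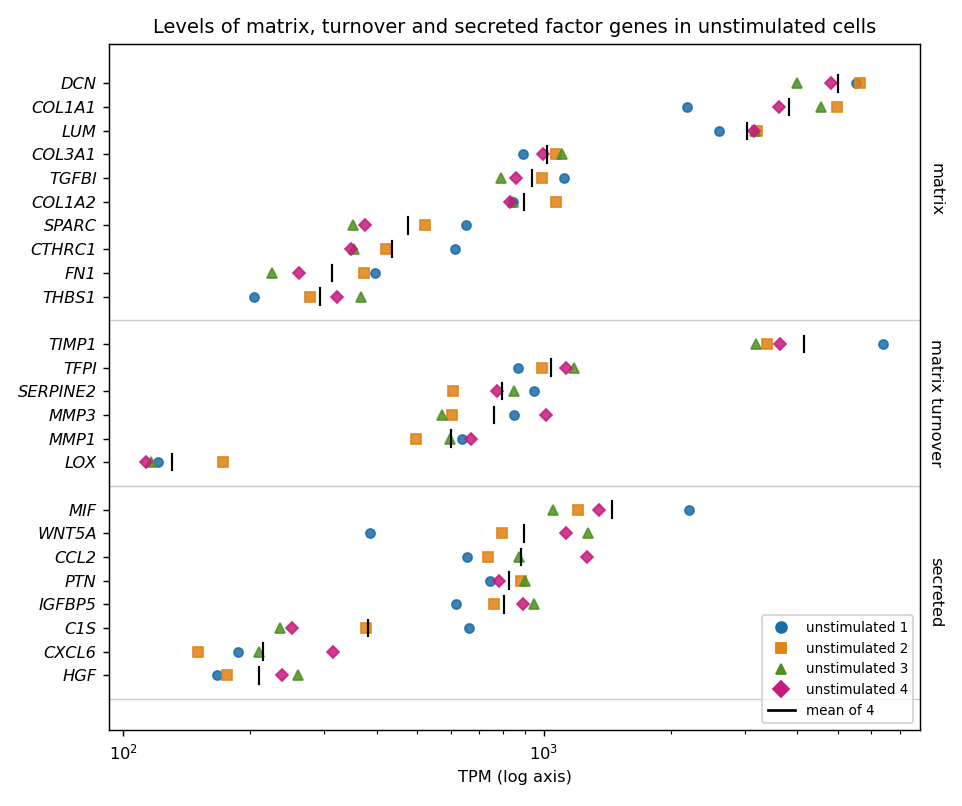
TPM (x axis, log scale) of 24 genes of matrix, matrix turnover and secreted factors in unstimulated libraries 1 to 4 (colours and shapes), with the mean of 4 as a black bar. DCN, COL1A1, LUM and TIMP1 have the highest means, and library 1 stands apart in COL1A1, TIMP1 and WNT5A.

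Chemokines were the secreted factors with the largest spread. Of 24 chemokine genes 7 were measured and 7 were not detectable, CXCL9, CXCL13, CCL5, CCL19 and CCL21 among the latter. CCL2, which attracts monocytes, was the highest at 656, 737, 870 and 1268 TPM. The neutrophil attractant CXCL8 (ENSG00000169429.12, chr4:73740519-73743716, plus strand) was at 33.5, 26.4, 101 and 723 TPM, that is, 47, 27, 121 and 811 counts. CXCL1 was at 89.7, 54.7, 46.7 and 303 TPM. CXCL3 had 7, 4, 28 and 156 counts, CXCL2 had 1, 0, 0 and 37 and CXCL5 had 3, 2, 26 and 56. In each of these 5 genes library 4 was the highest. CXCL6 and CCL11 (eotaxin 1) varied less, at 187, 150, 210 and 314 TPM and at 218, 145, 124 and 154 TPM. Over the 18 chemokine genes tested, library 4 held the highest CPM in 9, while it was highest in 21.4% of all genes tested. The transcripts of CXCL1, CXCL2 and CXCL3 are alike in sequence, so the counting may have shared reads between them.

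These chemokine genes lie together on chromosome 4, and their upstream sequences share a motif, so they are shown here. The sequences are from RefSeq (GRCh38.p14), read 5′ to 3′ along the gene, and capitals mark a match to GGAATTTCC, a letter string of the type bound by NF-κB, in either orientation. The motif was searched in the 250 bases before the annotated start of each gene. CXCL8 is from chr4:73740433-73740531 (plus strand), CXCL1 from chr4:73869270-73869368 (plus strand), CXCL3 from chr4:74038714-74038812 (minus strand), CXCL2 from chr4:74099219-74099317 (minus strand), CXCL5 from chr4:73998714-73998812 (minus strand) and CXCL6 from chr4:73836544-73836642 (plus strand).
CXCL8: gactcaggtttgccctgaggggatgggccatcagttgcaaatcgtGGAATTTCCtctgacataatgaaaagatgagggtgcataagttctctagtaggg
CXCL1: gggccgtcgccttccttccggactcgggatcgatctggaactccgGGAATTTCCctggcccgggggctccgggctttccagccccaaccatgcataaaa
CXCL3: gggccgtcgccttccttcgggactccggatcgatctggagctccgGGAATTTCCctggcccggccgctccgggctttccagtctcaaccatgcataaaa
CXCL2: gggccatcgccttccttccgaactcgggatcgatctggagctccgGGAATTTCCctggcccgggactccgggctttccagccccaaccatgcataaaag
CXCL5: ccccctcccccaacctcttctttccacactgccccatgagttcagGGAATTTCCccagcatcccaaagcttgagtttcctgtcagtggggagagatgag
CXCL6: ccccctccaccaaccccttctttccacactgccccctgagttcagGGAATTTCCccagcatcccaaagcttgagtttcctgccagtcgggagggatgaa
The match began 91 bases before the start in CXCL8, 78 in CXCL1 and CXCL3, 77 in CXCL2, 90 in CXCL5 and 89 in CXCL6. CXCL10 and CXCL11 held it too, in the reverse orientation, so 8 of the 18 chemokine genes in the promoter table had a match, beside 0.413% of all 35116 promoters. The first share is counted by gene and the second by promoter. The sequences of CXCL1, CXCL2 and CXCL3 are alike, as are those of CXCL5 and CXCL6, so these matches are not independent. CXCL6, with the same letters, was also highest in library 4, at 314 TPM there and 150 to 210 TPM in the others, a smaller spread than in CXCL8. CCL2, which was not among the genes with a match, was highest in library 4 too. Whether the motif bears on these levels was not tested. A match is a description of the sequence and says nothing of binding in these cells.

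Few cytokine genes were measured. Of 30 genes 3 were measured, 12 had more than 3 counts in at least 1 library without being measured, and 15 were not detectable, including TNF, OSM, IL1A, CSF2, CSF3 and IFNB1. MIF, a constitutively secreted protein, was at 2207, 1202, 1051 and 1349 TPM, and the alarmin gene IL33 at 104, 73.0, 125 and 140 TPM. IL1B, whose product was also 1 of the cytokines applied, had 17, 2, 29 and 83 counts, and IL6 had 10, 7, 2 and 38. Both were highest in library 4, the library highest in CXCL8.

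Growth factor transcripts were more widely present, with 23 of 45 genes measured. Pleiotrophin (PTN) led at 744, 881, 902 and 780 TPM, followed by HGF, a mitogen for epithelial cells, at 167, 177, 261 and 238 TPM, PDGFC at 136 ± 42.4 TPM and the keratinocyte growth factor gene FGF7 at 68.9, 106, 152 and 175 TPM. HGF and FGF7 were higher in libraries 3 and 4 than in libraries 1 and 2. TGFB1 and TGFB3 were not detectable, nor were the EGF receptor ligands TGFA, EREG and BTC. Of 7 IGF binding protein genes 5 were measured, IGFBP5 at 805 ± 148 TPM, IGFBP3 at 297 ± 48.8 TPM and IGFBP7 at 274 ± 17.4 TPM. IGFBP6 was at 226 TPM in library 1 and at 55.7 to 82.6 TPM in the others.

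Among 33 BMP and Wnt niche genes 13 were measured and 13 were not detectable. WNT5A, a ligand of noncanonical Wnt signalling, was at 385, 796, 1271 and 1126 TPM, so library 1 was the lowest. FSTL1 was at 288 ± 80.5 TPM, the Wnt inhibitor gene DKK1 at 152 ± 45.1 TPM and the BMP antagonist genes NOG and GREM1 at 93.8 ± 15.8 and 35.0 ± 10.9 TPM. The R-spondin genes RSPO1 and RSPO3, which sustain intestinal stem cells, reached at most 6 and 9 counts, and RSPO2 was not detectable. Of 17 complement genes 6 were measured, with the protease gene C1S at 662, 378, 236 and 252 TPM and CD59, which protects cells from complement, at 177 ± 41.9 TPM.

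Receptors for most of the cytokines of the study were present at modest levels. Of 23 receptor genes 14 were measured. IL6ST (gp130), the signalling chain shared by IL-6 and OSM, was at 270, 196, 120 and 113 TPM and IL13RA2, a high-affinity IL-13 receptor, at 122, 103, 178 and 228 TPM. IFNGR1 was at 104 ± 29.1 TPM, TGFBR1 at 48.5 ± 6.04 TPM, IFNAR1 at 33.2 ± 3.20 TPM, TNFRSF1A at 12.5 ± 3.92 TPM, OSMR at 12.5 ± 4.40 TPM and IL1R1 at 11.1 ± 3.25 TPM. IL22RA1, the specific chain of the IL-22 receptor, had 0 counts in all 4 libraries, which allows up to 3 counts in each, or 1.47 to 2.19 CPM. The IL-17A receptor chains were near this limit, IL17RA with 10, 2, 1 and 0 counts and IL17RC with at most 3, and the IL-6 binding chain IL6R had 8, 3, 0 and 4.

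Of 34 receptor tyrosine kinase genes 7 were measured and 19 were not detectable. AXL, the receptor for GAS6, stood far above the rest at 2093, 2374, 969 and 1689 TPM, with library 3 the lowest. PDGFRA, a receptor that marks intestinal fibroblasts, was at 150, 157, 207 and 228 TPM, while PDGFRB had 17, 7, 3 and 7 counts. Of 25 integrin genes 10 were measured. ITGB1, the common β chain, was at 1608 ± 107 TPM, the collagen receptor chain ITGA1 at 117 ± 31.2 TPM and ITGAV at 96.2 ± 24.1 TPM. The leukocyte chains ITGAL, ITGAM, ITGAX and ITGB2 and the epithelial chains ITGB4 and ITGB6 were not detectable.

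Of 43 G protein-coupled receptor genes, 17 were measured, led by the lysophosphatidic acid receptor LPAR1 (138 ± 29.4 TPM), the muscarinic receptor CHRM2 (83.4 ± 10.6 TPM), the thrombin receptor F2R (77.2 ± 11.4 TPM) and the bradykinin receptor BDKRB2 (69.7 ± 3.38 TPM). BDKRB2 was among the least variable receptors, at 66.9 to 74.1 TPM. Innate sensors were scarce, with 2 of 21 measured and 12 not detectable, TLR2, TLR4 and CD14 among these. LY96, which encodes the TLR4 partner MD-2, was at 117, 198, 106 and 118 TPM.

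Among transcription factors, SOX4 was the highest of those listed, at 802, 1221, 1704 and 1611 TPM. Of 44 mesenchymal factors, 16 were measured. ZEB1, which represses epithelial genes, was at 102 ± 15.2 TPM, KLF6 at 88.1 ± 12.8 TPM, SNAI2 at 79.2 ± 28.3 TPM and FOXF1, a Hedgehog target of gut mesenchyme, at 69.96 ± 10.8 TPM. SNAI1, GLI1 and RUNX1 were not detectable. Of 17 factors that the study ties to the inflammatory fibroblast state 7 were measured. TWIST1 was at 81.1, 164, 278 and 207 TPM and PRDM1 at 59.1, 114, 229 and 166 TPM, both with the order of libraries 1, 2, 4 and 3 from lowest to highest. SOX4 and WNT5A followed the same order. So did CAPZA1, ACTB, HNRNPH1 and RPS25 among the most abundant genes, so the order is not particular to these factors. DRAP1 was at 216 ± 72.9 TPM and FOSL1 at 33.3 ± 22.0 TPM. GLI3 had 19, 7, 9 and 6 counts, while ETV4, RELB, ETV7, ELK1 and FOXO1 were not detectable. The median GC content of these 17 factors was 57.2%, a range in which 12.5% of protein-coding genes were measured. Its part in these counts was not tested.

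Of 18 muscle and Hippo pathway regulators 8 were measured. The coactivator genes WWTR1 (TAZ) and YAP1 were at 104 ± 30.3 and 26.3 ± 7.05 TPM. MYOCD, which encodes the smooth muscle coactivator myocardin, had 110, 45, 19 and 128 counts. Early response genes were uneven. EGR1 was at 394, 542, 609 and 600 TPM, FOSL2 at 68.6, 123, 184 and 157 TPM and ATF4 at 75.7 ± 7.77 TPM, while FOS, FOSB, JUNB, ATF3, EGR2 and NR4A1 were not detectable. Libraries 3 and 4 held the highest CPM in 4 and 7 of the 11 early response genes tested, beside 28.6% and 21.4% of all genes tested. Among NF-κB and interferon factors, STAT2 was at 119, 230, 279 and 230 TPM and NFKBIA at 33.0, 42.2, 88.9 and 77.0 TPM.

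HOX genes record the position of a tissue along the body axis. Of 39 HOX genes 3 were measured and 27 were not detectable. HOXA3 was at 30.9, 70.6, 72.5 and 70.2 TPM, HOXB7 at 20.6 ± 6.08 TPM and HOXA9 at 9.47 ± 1.83 TPM. All listed HOXC and HOXD genes had at most 3 counts in each library, and so did HOXA13 and HOXB13, which mark the hindgut. The median GC content of the HOX list was 55.1%, a range in which 12.5% of protein-coding genes were measured, and its part in these counts was not tested.

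Markers of fibroblasts were measured for the most part, together with a part of the contractile program, and the label was not contradicted. Of 20 fibroblast markers 15 were measured and 3 (PI16, CD34 and ADAMDEC1) were not detectable. Besides decorin, lumican and collagens I and III, F3 (tissue factor) was at 1803, 3515, 4580 and 4181 TPM, the intermediate filament gene VIM at 717, 839, 778 and 791 TPM and PDPN (podoplanin) at 194, 182, 180 and 183 TPM. THY1 was at 95.8 TPM in library 1 and at 28.0 to 40.3 TPM in the others, and FAP at 92.9 ± 15.1 TPM. PI16 and CD34 mark fibroblasts of the adventitia and ADAMDEC1 those of the lamina propria.

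Of 16 contractile genes 9 were measured. ACTA2 (ENSG00000107796.13, chr10:88935074-88991339, minus strand), α smooth muscle actin, was at 1511, 1039, 367 and 562 TPM, ACTG2, the enteric smooth muscle actin, at 1690, 840, 442 and 609 TPM, and TAGLN at 386, 190, 114 and 131 TPM. In all 3 genes library 1 was the highest, library 2 came next and library 3 was the lowest. The tropomyosin genes TPM1 and TPM2 varied less, at 1393 ± 231 and 886 ± 142 TPM, and CALD1 (caldesmon) was at 777 ± 125 TPM. MYH11, the myosin heavy chain of mature smooth muscle, had 14, 3, 0 and 1 counts and DES (desmin) had 0 in all 4. Over the 14 contractile genes tested, library 1 held the highest CPM in 8, library 2 in 6 and libraries 3 and 4 in 0, while these libraries were highest in 29.5%, 20.5%, 28.6% and 21.4% of all genes tested.

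Most endothelial, immune and epithelial markers were at or near 0, while 2 neural markers and 2 pericyte markers were measured. All 9 endothelial markers except TEK (5, 5, 0 and 5 counts) were not detectable, with PECAM1, VWF and CDH5 at 0 in every library, and the list summed to between 0 and 2.13 TPM. Of 15 immune markers 13 were not detectable, CD68 had 15, 1, 0 and 5 counts, and the list summed to between 0 and 10.6 TPM. Of 12 epithelial markers 9 were not detectable, EPCAM and CDH1 at 0 throughout, while VIL1 had 20, 25, 21 and 10 counts and KRT18 had 22, 12, 9 and 22, and the list summed to 19.3 to 25.1 TPM. The median GC content of the epithelial list was 58.8%, a range in which 12.5% of protein-coding genes were measured. Its part in these counts was not tested. Of 9 pericyte markers RGS5 and MCAM were measured, with 35, 34, 30 and 16 and 62, 20, 17 and 28 counts. Of 9 neural and glial markers UCHL1 (289, 300, 178 and 299 TPM) and TUBB3 (12.6 ± 1.92 TPM) were measured, while SOX10 and S100B were at 0. Of 10 markers of interstitial cells of Cajal, mesothelium and fat 9 were not detectable.

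**Figure D3:**
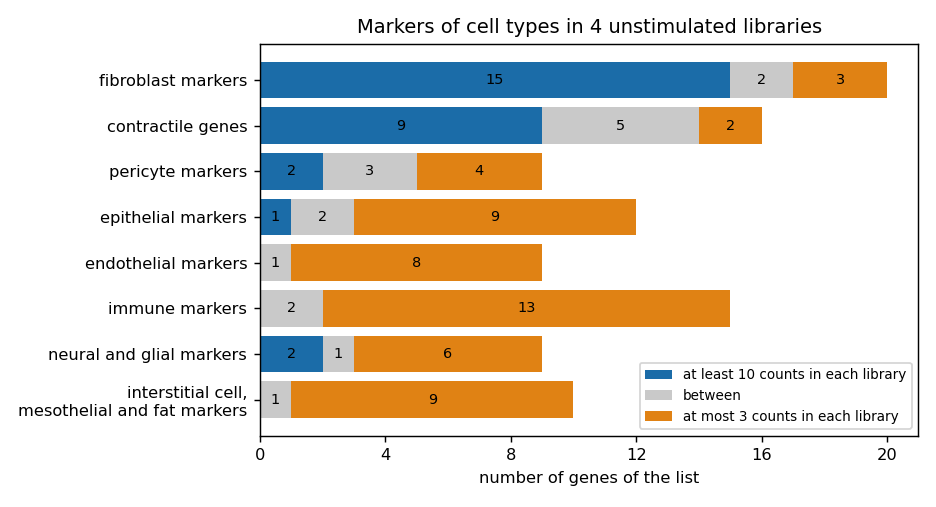
Number of genes (x axis) in each of 8 marker lists with at least 10 counts in each unstimulated library (blue), with at most 3 counts in each (orange) or between (grey). Fibroblast markers (15 of 20) and contractile genes (9 of 16) were mostly measured, and 13 of 15 immune and 8 of 9 endothelial markers were not detectable.

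Transcripts of the cell cycle were still present after starvation. Of 25 proliferation genes 13 were measured. PCNA, the sliding clamp of DNA replication, was at 241, 161, 200 and 241 TPM, CDK1 at 152, 181, 112 and 154 TPM, CCNE2 at 110 ± 29.3 TPM and BIRC5 at 102, 103, 103 and 97.3 TPM. MKI67 had 57, 40, 43 and 49 counts, or 5.14 ± 0.42 TPM. A bulk level cannot tell fewer cycling cells from less RNA per cell. Among 25 cell cycle brakes and starvation genes 14 were measured, with CCND1 at 96.9, 43.2, 15.2 and 38.7 TPM and TXNIP at 46.6 ± 4.90 TPM. Of 18 genes of cholesterol synthesis and uptake 9 were measured, CYP51A1 at 846 ± 216 TPM and HMGCS1 at 64.0, 128, 205 and 144 TPM among them.

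Among interferon-stimulated genes the IFITM family, which restricts virus entry, had the highest levels. Of 23 interferon-stimulated genes 7 were measured and 9 were not detectable, ISG15, RSAD2, OAS1 and MX2 among the latter. Over all protein-coding genes 30.8% were measured and 44.2% not detectable, so the list lay near these shares. IFITM3 was at 1003, 761, 591 and 606 TPM, IFITM1 at 287, 289, 418 and 361 TPM and IFI6 at 54.8 ± 8.99 TPM. Of 20 MHC and antigen processing genes 6 were measured. The class I light chain gene B2M was at 6763, 5613, 5128 and 6072 TPM, and the heavy chain genes HLA-B and HLA-C at 37.9 ± 3.05 and 41.7 ± 18.7 TPM, counts that may be split between their similar sequences. The class II genes HLA-DRA, HLA-DRB1, HLA-DPA1, HLA-DQA1 and HLA-DQB1 and the invariant chain gene CD74 were not detectable.

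The 4 replicates differed by more than counting error. The common biological coefficient of variation (BCV, the relative spread between libraries beyond counting error, from edgeR) was 0.355 for unstimulated cells and 0.257 to 0.421 for the 10 cytokine groups. No pair of libraries was identical, and the counts of each unstimulated pair gave a chi-square of 6.12 to 29.2 for each degree of freedom, where counting error alone gives about 1. The pair of libraries 1 and 3 was farthest apart and that of libraries 2 and 4 closest. Against the mean of the other 3, library 1 had 528 of 6090 measured genes (8.67%) more than 2 times higher or lower, library 3 had 424 (6.96%), library 4 had 185 (3.04%) and library 2 had 112 (1.84%). Across 6076 measured genes, which share these libraries and are not independent replicates, the deviation of library 1 had a Spearman correlation of 0.370 with transcript GC content, beside -0.155, -0.149 and -0.194 for libraries 2 to 4.

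Single genes spread far more than this average in places. Among 3902 protein-coding genes with a mean of at least 50 counts the median BCV was 0.201, 4 genes exceeded 1 and in 224 the spread was no larger than counting error. CXCL8 was the most variable with a BCV of 1.51. PSAP, the gene of prosaposin, had a BCV of 1.26 and 495, 66, 7 and 63 counts, and REXO2 had a BCV of 1.19 and 32, 74, 35 and 309 counts. PTGS1, which encodes cyclooxygenase 1, had 152, 0, 17 and 78 counts. LRPAP1 (220, 29, 29 and 35 counts), WDR1 (148, 25, 13 and 26) and CAVIN3 (252, 47, 22 and 42) were high in library 1 alone. STC1, which encodes the secreted glycoprotein stanniocalcin 1, was at 208, 317, 2147 and 1861 TPM, so libraries 3 and 4 lay above libraries 1 and 2. CXCL1 (BCV 0.990), DYNC2H1 (0.922) and REV3L (0.886) were also among the 12 most variable genes.

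The 10 most even genes among those with a mean of at least 200 counts were TWF1, SRRM1, BBX, GLRX2, SCARB2, DDX21, NDUFS6, ITGB1BP1, PON2 and ACAA2, whose CPM varied by 1.05 to 1.10 times between the lowest and the highest library. BBX had a coefficient of variation of 0.022 and DDX21, the highest of the 10, of 0.0444. By list, the median BCV was 0.420 over 6 chemokines, 0.381 over 8 contractile genes, 0.148 over 8 proliferation genes and 0.167 over 5 fibrillar collagens.

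**Figure D4:**
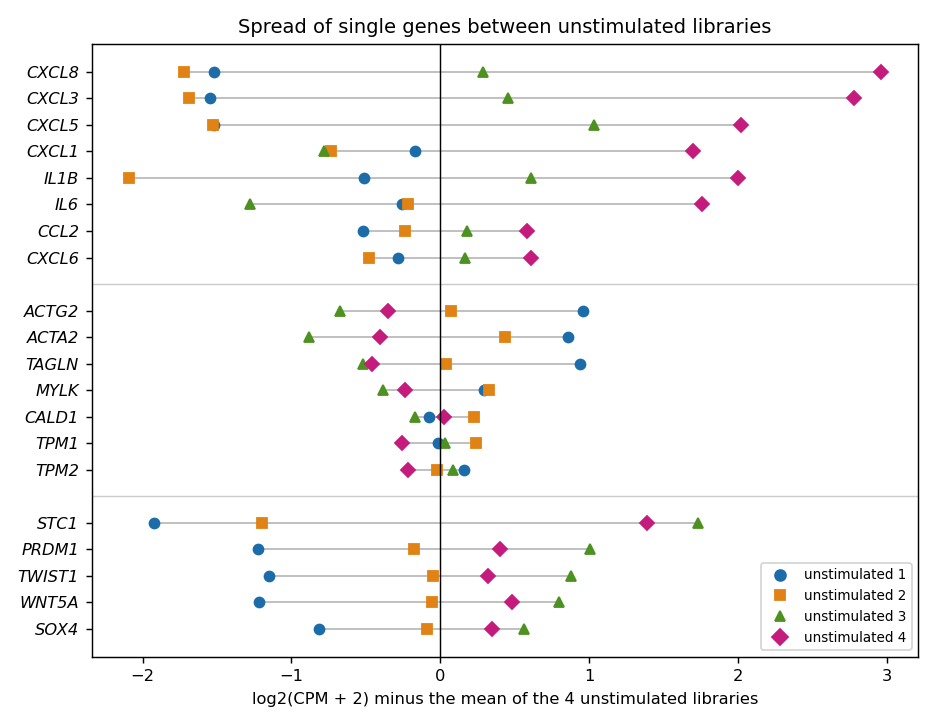
Deviation of log2(CPM + 2) from the mean of the 4 unstimulated libraries (x axis) for chemokines and cytokines (top), contractile genes (middle) and 5 other genes (bottom), with libraries 1 to 4 as colours and shapes. Library 4 is highest in the top block, libraries 1 and 2 lie mostly above libraries 3 and 4 in the middle block, and library 1 is lowest in the bottom block.

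The unstimulated libraries were then compared with the cytokine groups, to ask which transcripts set resting cells apart from the average stimulated cell. Each gene's unstimulated coefficient was set against the mean of the 10 group coefficients on the log2 scale (edgeR quasi-likelihood test, all 44 libraries, Benjamini-Hochberg adjustment over 9513 genes). Of these, 162 (1.70%) were higher and 134 (1.41%) lower in unstimulated cells at an adjusted p under 0.05, and 11 and 16 of them passed an absolute log2 fold change of 1.5. The median log2 fold change over all genes tested was 0.04. A single strong cytokine can move such a mean, so the lowest and highest group mean are given in CPM, a scale for comparing 1 gene between groups.

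Among the lists, MHC, interferon-stimulated and chemokine genes had the most members called lower in unstimulated cells. Of 23 interferon-stimulated genes tested 6 were lower and 0 higher, of 15 MHC genes 7 and 0, of 18 chemokines 6 and 0, of 19 cytokines 4 and 0 and of 20 matrix proteases 4 and 1. The filter could keep a gene through a single group where it was high. A gene near 0 in unstimulated cells could then be called lower but hardly higher. All 23 interferon-stimulated genes were tested, though 7 were measured and 9 not detectable in unstimulated cells. The direction of these counts is therefore partly set by the filter and is not read as a result. IFI6 had 30, 31, 37 and 29 counts and a log2 fold change of -2.64 (SE 0.52, adjusted p = 0.00163), with 20.8 CPM in unstimulated cells, 29.6 CPM in the lowest cytokine group (IL-22) and 7945 CPM in the highest (IFNα). All 10 cytokine groups lay above unstimulated cells in mean CPM for IFI6, IFIT3, IFITM1, RIGI, B2M, HLA-C, CTSL and COL8A1. For IFIT3, IFITM1, RIGI, HLA-C and COL8A1 the lowest group lay within the SD of the unstimulated mean. COL8A1, for example, was at 34.4 CPM under IFNγ and 34.2 ± 8.41 CPM in unstimulated cells. A rise under every cytokine is thus not shown for these genes. Nor is it shown for IFI6, B2M and CTSL, since single cytokines were not tested here. IFI6 under IL-22 was at 29.6 ± 14.6 CPM. B2M had a log2 fold change of -0.73 (SE 0.10, adjusted p = 9.31e-06), at 2556 CPM against 2702 CPM (IL-22) to 14577 CPM (IFNα). CXCL10 had 0, 0, 4 and 9 counts and a log2 fold change of -4.44 (SE 0.73, adjusted p = 0.000161), and in the OSM group its mean of 1.49 CPM was below the 2.24 CPM of unstimulated cells. CCL2 had a log2 fold change of -1.61 (SE 0.21, adjusted p = 5.69e-06), with 130 CPM under TGFβ1, 305 CPM in unstimulated cells and 7404 CPM under TNF. CCL7, with 10, 4, 41 and 19 counts, had a log2 fold change of -2.23, IL32, with 13, 1, 3 and 1, of -2.27, IFIT3 of -2.24 and ISG20 of -2.06. TDO2, GDF15 and TGFB3 were also called lower, with at most 3 counts in each unstimulated library, so no fold change is given.

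Genes called higher in unstimulated cells were fewer per list. Of 20 proliferation genes tested 5 were higher and 0 lower, of 8 fibrillar collagens 3 and 0, of 11 receptor tyrosine kinases 3 and 0, of 13 integrins 3 and 0 and of 14 proteoglycans 2 and 0. TOP2A, a topoisomerase of dividing cells, had a log2 fold change of 1.12 (SE 0.19, adjusted p = 0.00025), at 179 CPM against 15.4 CPM (IFNα) to 218 CPM (IL-1β). CDK1, BIRC5, RRM2 and CCNB1 had log2 fold changes of 0.67 to 0.90. ALDH1A1, an enzyme of retinoic acid synthesis, had 183, 244, 79 and 58 counts and a log2 fold change of 1.92 (SE 0.27, adjusted p = 9.31e-06), and the IL-13 group lay above unstimulated cells at 166 CPM. SHISA3 had 67, 45, 73 and 57 counts and a log2 fold change of 1.56 (SE 0.28, adjusted p = 0.000484), and CHRM2 a log2 fold change of 0.85. In both genes all 10 cytokine group means lay below the unstimulated mean, and the highest of them lay within its SD. SHISA3 was at 39.0 ± 8.75 CPM against 1.51 CPM (TNF) to 33.3 CPM (OSM). CHRM2 was at 229 ± 22.9 CPM against 56.8 CPM (TNF) to 223 CPM (IFNα). COL5A1 had the largest fitted value, 3.28 (SE 0.78, adjusted p = 0.00994), and this was lost without library 1 (adjusted p = 0.0965). CMKLR2, FGF14, PDE1A and PSTPIP2 had log2 fold changes of 1.51 to 2.19 and ITGBL1 was also called higher, and each of these 5 was lost without library 2 (adjusted p of 0.103 to 0.353).

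Of 76 listed or named genes that were called, 24 stayed at an adjusted p under 0.05 whichever of the 44 libraries was left out, and library 2 mattered most, since 28 of the 76 were called without it. The 24 were IFI6, IFIT3, IFITM1, IFITM3, ISG20, RIGI, B2M, HLA-B, HLA-C, CXCL6, CXCL10, CCL2, CCL7, CCL11, INHBA, CTSL and COL8A1 on the lower side and ALDH1A1, SHISA3, TOP2A, BIRC5, LAMA4, CHRM2 and IGFBP3 on the higher side. COL1A2 and COL3A1, with log2 fold changes of 0.49 and 0.56 and adjusted p of 0.0422 and 0.00806, were not among them. The median transcript GC content was 41.5% over genes called higher, 47.2% over genes called lower and 45.0% over all genes tested. The count-weighted GC content was 43.2% to 44.1% in unstimulated libraries and 42.9% to 44.7% in cytokine libraries, and its part in the calls was not tested.

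**Figure D5:**
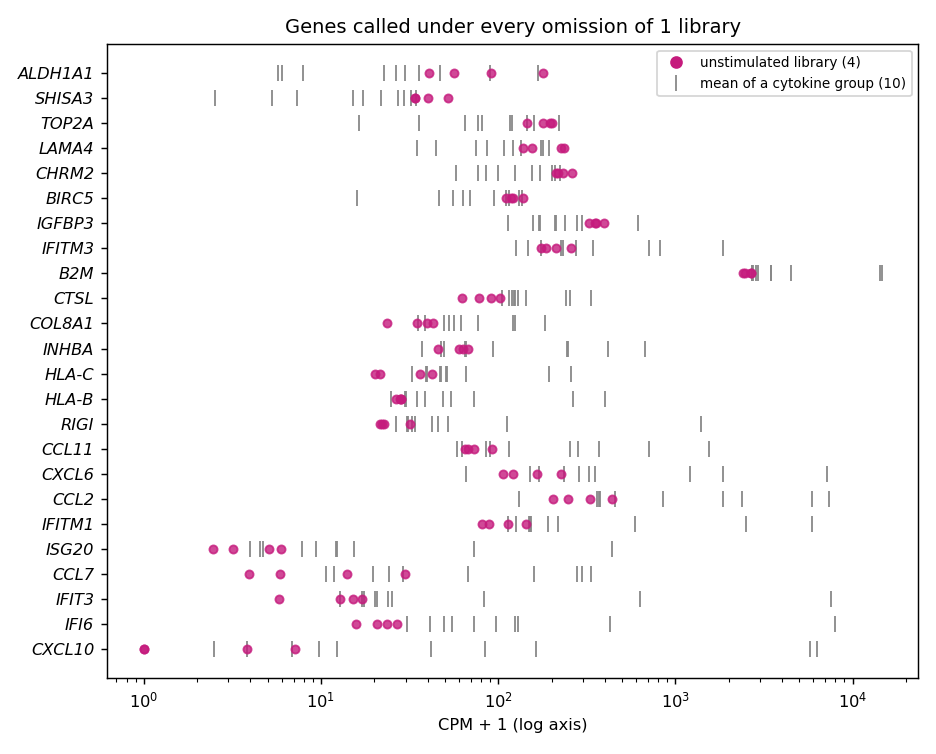
CPM + 1 (x axis, log scale) of the 24 genes called whichever library was left out, in the 4 unstimulated libraries (dots) and as means of the 10 cytokine groups (bars), ordered by log2 fold change. The dots of IFI6 lie to the left of every bar.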

How the data were processed

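Bulk RNA-seq of 44 Ccd-18Co libraries (11 groups of 4) was used. The authors deposited 1 table of estimated counts per gene symbol, made with kallisto 0.48.0 on hg38 after read checks with FastQC 0.11.9 and MultiQC 1.14, per the labels and the submitters' processing notes. The transcriptome release, strand setting and summing of transcripts to genes are not given in the sources used here. RNA was extracted with Qiagen or Zymo kits, and which library had which is not given.

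Estimated counts were rounded. TPM was computed here from counts and canonical transcript lengths (GENCODE 44, GRCh38). CPM, BCV and the contrast with the 10 cytokine groups came from edgeR 4.0.16 (R 4.3.3) with TMM normalization and the quasi-likelihood test on 9513 genes left by filterByExpr, adjusted by Benjamini-Hochberg. DESeq2 1.42.0 was an alternative. On simulated counts of this contrast (8804 genes), 171 of 196 changed genes were called (87.2%), with 5 unchanged genes called. The simulated cytokine groups all had the same means, genes were changed in the unstimulated libraries only, and every gene had a BCV of 0.316. The real groups and genes are unequal in both, so these shares check the code and do not measure the error of the real contrast. Limits from counts cover counting error only, since no molecular identifiers were used, and p-values measure the spread between these samples only.

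Genes were named from 38 lists (the leading 3 to 5 by mean TPM, and defining members at the floor), as the 20 most abundant protein-coding genes, as the 8 largest rises and 8 largest falls called at a mean log2 CPM of at least 3, and as the 12 most and 10 least variable genes at mean counts of at least 50 and 200. The members and lists were chosen with earlier results of these data known. Replicate numbers are shared between groups, and 6 of 40 same-numbered pairs correlated above 0.1, the highest of them in replicate 1. The numbers were not taken as pairs in the main fit, and a replicate block was an alternative. Other lengths, filters, normalizations, tests, groups and left-out libraries were tried as alternatives. Some genes of the lists are not reported here.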

Additional observations from a re-analysis of the deposited data

Results flagged for a closer look

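The items tested were the library total and the TPM of named genes, 194 in all. In 22 of them, all TPM of genes, 1 unstimulated library lay far from the other 3 (gap to the nearest library over the whole range above Dixon's critical value for 4 samples). Chance flags about 1 in 20 such groups. The genes tested include those named for the largest spread between these same libraries, so the count cannot be read against that share.

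Library 4 was far above the others in 5 chemokine and cytokine genes, CXCL8 (723 TPM), CXCL1 (303 TPM), CXCL3 (212 TPM), IL6 (49.4 TPM) and CXCL2 (48.6 TPM), and far below them in P4HA1 (144 TPM). Library 1 was far above the others in FTL (7646 TPM), TIMP1 (6402 TPM), MMP2 (270.2 TPM), IGFBP6 (226 TPM), PSAP (210 TPM), WDR1 (58.0 TPM), LRPAP1 (24.6 TPM) and RSPO1 (2.44 TPM, from 6 counts). It was far below them in ACTB (4328 TPM), LUM (2609 TPM) and HOXA3 (30.9 TPM). Library 2 was far above the others in COL1A2 (1070 TPM), LY96 (198 TPM), LOX (173 TPM) and PSTPIP2 (21.4 TPM), and library 3 was far below them in UCHL1 (178 TPM). The cause of these differences was not tested.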

How the results depend on the processing

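The 20 most abundant protein-coding genes held 16.1% of TPM, 12.9% with the longest transcript as length, 13.4% with the mean over transcripts, 12.7% with the union of exons and 17.6% with protein-coding genes alone in the total, and 16.0% to 16.3% with 1 unstimulated library left out. Of the 20, 12 to 13 were shared when the length was changed. Of 189 named genes, TPM moved by over 1.5 times in 22 with the longest transcript, 74 with the mean over transcripts and 85 with the union of exons. Genes measured numbered 6090, 9619 with at least 1 count in each library, and 6147 to 6547 with 1 library left out. The BCV was 0.355, 0.265 over protein-coding genes with a mean of at least 50 counts, and 0.315 to 0.394 with 1 library left out. The lowest chi-square per degree of freedom between unstimulated libraries was 6.12 and ranged from 6.12 to 11.0 with 1 library left out, an alternative chosen after seeing the data.

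The contrast called 296 genes. It called 601 of all genes with any count, 27 above an absolute log2 fold change of 1.5, 89 above 1 and 188 without the TNF group. With the 40 cytokine libraries as 1 group edgeR called 0, with 693 at an unadjusted p under 0.05, and DESeq2 called 5. Leaving out 1 library gave 77 to 359 calls, 77 without unstimulated library 2 and 160 without unstimulated library 4. The causes were not tested. DESeq2 on the same design called 397, of which 283 were shared. The replicate block called 372, including all 296. The correlation of same-numbered libraries had a median of 0.031 (-0.087 to 0.281). The highest values were those of replicate 1, at 0.281 for IL-6, 0.277 for IFNα and 0.250 for OSM. Whether the numbers stand for something the libraries share is not given. The 8 largest rises and 8 largest falls named for this contrast kept their direction under the alternatives run. For the other called genes the direction under the alternatives was not recorded. The order of genes by TPM did change with the transcript length used. Totals of 1365019 to 1725354 counts limit what can be said of genes with few counts.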
